A study of Mus musculus with 9 samples.

Results

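The data described here are the transcript levels of 9 genes for regulators of G protein signalling (RGS proteins) in BV2 cells, a transformed mouse line used as a stand-in for microglia. The genes, Rgs1, Rgs2, Rgs3, Rgs10, Rgs12, Rgs14, Rgs16, Rgs18 and Rgs19, were chosen by symbol. All 9 were found among the 55906 entries of the table, each under an Ensembl identifier (for Rgs10 ENSMUSG00000030844, for Rgs2 ENSMUSG00000026360, for Rgs3 ENSMUSG00000059810 and for Rgs1 ENSMUSG00000026358). RNA sequencing covered 9 libraries of wild-type BV2 cells in 3 groups of 3: untreated cells (Control), cells given lipopolysaccharide (LPS), the bacterial outer-membrane ligand of Toll-like receptor 4, and cells given LPS together with Pilo, an agent known here only by that label (LPS+Pilo). The series title places the work in a study of M3 muscarinic receptor activation, and its design text asks how Pilo alters the inflammatory response. All 3 groups are the same line, no group analysed here received Pilo alone, and the sources used here state no dose or time. The labels speak of biological replicates without saying whether these were separate cultures, so p-values measure the spread between these libraries.

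RGS proteins switch off heterotrimeric G proteins. A receptor loads the G protein alpha subunit with GTP, and the RGS domain speeds the hydrolysis of that GTP, so the alpha subunit returns to the inactive form and takes up beta and gamma again. Members differ in the alpha subunits they act on: Rgs2 prefers the Gq family, which muscarinic M3 receptors use, whereas Rgs10, Rgs14 and Rgs19 act on the Gi family, which most chemokine receptors use. In microglia Rgs10 is known as an abundant member that restrains inflammatory activation.

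Values are TPM, a transcript measure scaled for gene length and to the same total in each library, so levels of different genes can be compared and a rise of abundant genes lowers the rest. Between 10726 and 11123 genes per library reached 1 TPM. Tnf, a cytokine gene that LPS induces, lay at 11.05 to 13.1 TPM in untreated cells, 182 to 202 TPM with LPS, and 154 to 184 TPM once Pilo was added. Of 10 microglia and macrophage markers 9 averaged at least 1 TPM, and Aif1 averaged 0.742 TPM. Their summed level ran from 3325 to 3655 TPM (Control), from 2637 to 2743 TPM (LPS) and from 2290.4 to 2376 TPM (LPS+Pilo). Tyrobp and Cd68 were its largest parts in every library, followed by Trem2 or Spi1, and not every marker fell. Itgam was higher in treated cells (8.4 to 14.2, 21.5 to 42.5 and 27.9 to 32.8 TPM in the same order). Spi1 overlapped between Control (274 to 278 TPM) and LPS (269 to 279 TPM) and was lower in LPS+Pilo (236 to 253 TPM). Of 15 astrocyte, endothelial and fibroblast markers, as of 5 T and B cell markers, 0 averaged 1 TPM. The neuronal list rested on Tubb3, a tubulin gene, and Syn1, a synaptic vesicle gene (summed levels of 169.6 to 372, 318 to 411 and 394 to 468 TPM in the same order, with Snap25 and Rbfox3 at 0 throughout), and the oligodendrocyte list on Cnp and Mbp (32.9 to 36.1, 29.6 to 31.4 and 29.7 to 32.6 TPM). The part of these shifts in the results was not tested.

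The test took genes that reached 1 TPM in 3 or more libraries, 11260 in all and 6 of the 9 RGS genes. Each of these 6 exceeded 1 TPM in all 9 libraries, so none passed the filter through a single group. In Control cells Rgs19, which encodes the Gi regulator first known as GAIP, led with 148, 117 and 119 TPM. Rgs10 followed with 85.2, 77.5 and 76.8 TPM. These are high levels: 90.1% and 85.3% of tested genes had a lower Control mean than Rgs19 and Rgs10.

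The other 4 expressed members formed a lower tier in Control. Mean levels were 14.04 TPM for Rgs3, 13.1 TPM for Rgs14, 12.9 TPM for Rgs2 and 11.8 TPM for Rgs1, and each overlapped its neighbour in this order. The tier came apart in the treated cells. In LPS the order was Rgs3, Rgs14, Rgs1 and Rgs2, with Rgs1 (7.57 to 9.89 TPM) and Rgs2 (3.23 to 7.82 TPM) still overlapping. In LPS+Pilo the order was the same, with means of 24.4, 16.5, 4.28 and 2.12 TPM, and again Rgs1 and Rgs2 were the pair that overlapped. Rgs19 and Rgs10 kept the top places in each group, with no overlap between them or with Rgs3.

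**Figure D1:**
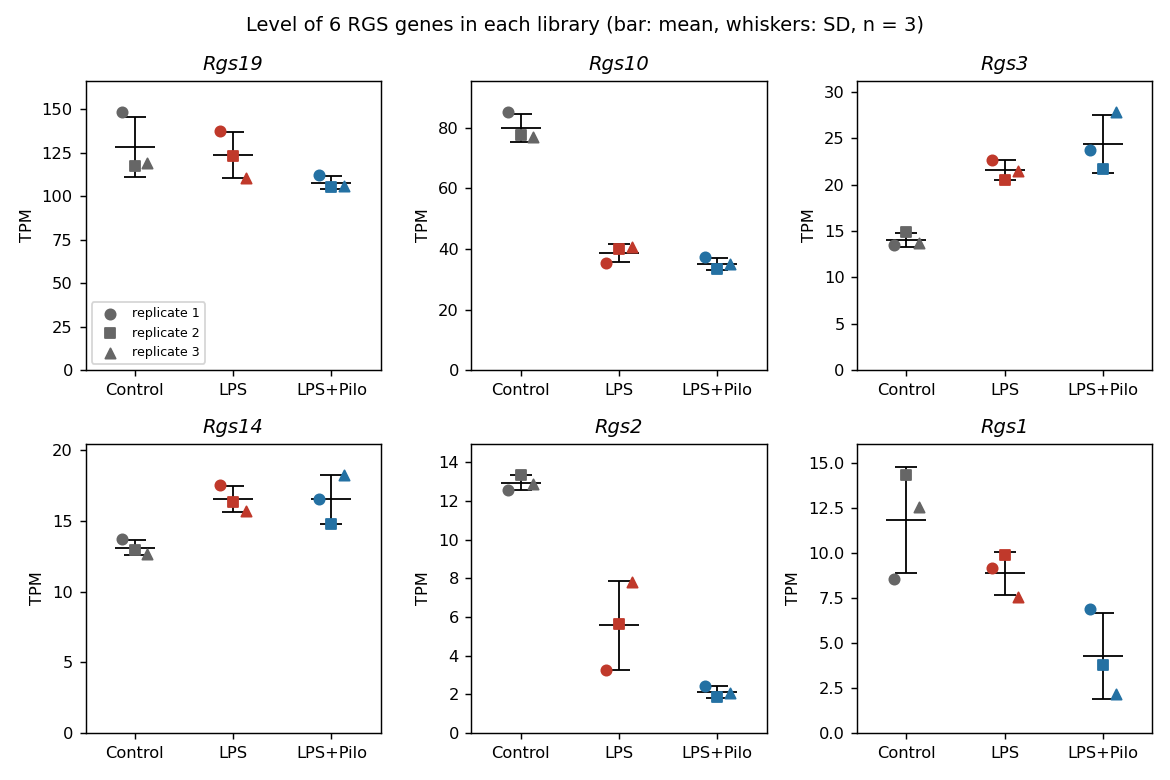
Level of the 6 expressed RGS genes in TPM (vertical axis, from 0) in Control, LPS and LPS+Pilo; each symbol is 1 library, the horizontal bar the mean and the whiskers the SD of 3 libraries. Rgs10 lay at 76.8 to 85.2 TPM in Control and at 33.3 to 40.5 TPM in the 6 treated libraries, Rgs2 stepped down over the 3 groups, and Rgs3 was higher in the treated libraries.

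The first comparison asked how LPS changed these genes. Rgs10 and Rgs2 fell, Rgs3 rose, and Rgs14, Rgs1 and Rgs19 did not pass. Calls are those of limma on log2(TPM + 1) with a Benjamini-Hochberg adjusted p under 0.05 over all genes tested, and fold changes on this scale understate those of low genes. By this rule 874 genes passed, or 7.76% of those tested, with 464 higher (4.12%) and 410 lower (3.64%) (614 higher and 902 lower after quantile normalization). Of the 6 RGS genes tested, 1 was higher and 2 were lower, with a median log2 fold change of -0.20 beside 0.07 over all genes tested.

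Rgs10 encodes a small protein that is little more than an RGS domain. Its level was 85.2, 77.5 and 76.8 TPM in Control and 35.2, 39.97 and 40.5 TPM in LPS. The groups did not overlap, and the mean fell by 51.7%, from 79.8 ± 4.66 to 38.6 ± 2.91 TPM (SD, n = 3 per group; limma log2 fold change -1.03 ± 0.09 SE, adjusted p = 0.000165). Of all genes tested, 0.933% had a lower fold change. In bulk RNA such as this, fewer cells with the transcript and less of it per cell cannot be told apart. The call held in each of the 18 alternatives run, with adjusted p from 0.000125 to 0.00217.

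Rgs2 encodes the Gq-preferring member and is known as a gene with rapidly changing transcript levels. Control libraries lay close together, at 12.6, 13.4 and 12.9 TPM, whereas LPS libraries were spread, at 3.23, 5.64 and 7.82 TPM. Each LPS library lay below each Control library. The mean fell by 57.0%, from 12.9 ± 0.389 to 5.56 ± 2.30 TPM (SD, n = 3 per group; limma log2 fold change -1.15 ± 0.24 SE, adjusted p = 0.0172). The coefficient of variation was 3.00% in Control and 41.3% in LPS. The call was lost without Control replicate 2 (limma adjusted p = 0.0529), Control replicate 3 (0.0654) or LPS replicate 2 (0.0507), when only Control and LPS were fitted (0.0592) and without the filter (0.0524). Over the alternatives its adjusted p ran from 0.00392 to 0.0654, and the fold change stayed negative in all 18.

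Rgs3, which encodes a regulator of Gi and Gq with several isoforms, went the other way. Its level was 13.5, 14.9 and 13.7 TPM in Control and 22.6, 20.5 and 21.5 TPM in LPS. All LPS libraries were higher than all Control libraries. The mean rose from 14.04 ± 0.730 to 21.5 ± 1.06 TPM, 1.53 times the Control mean (SD, n = 3 per group; limma log2 fold change 0.58 ± 0.11 SE, adjusted p = 0.0141). Limma no longer passed it when Control replicate 3 was left out (adjusted p = 0.0663) or when LPS replicate 1 was (0.0579), and over the alternatives its adjusted p ran from 0.0131 to 0.0663.

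The remaining 3 members did not pass with LPS. Rgs14, whose product also binds Ras-family proteins and carries a second alpha-subunit-binding motif, was at 13.7, 12.95 and 12.6 TPM in Control and 17.6, 16.3 and 15.7 TPM in LPS. These groups did not overlap, but the difference of 0.31 (95% interval 0.06 to 0.57) had a limma adjusted p = 0.130. Of all genes tested 24.2% had Control and LPS libraries that did not overlap, 11.2% with LPS higher and 13.1% with LPS lower. Rgs1, known for limiting chemokine receptor signals in lymphocytes, was at 8.58, 14.4 and 12.6 TPM in Control and 9.15, 9.89 and 7.57 TPM in LPS, overlapping groups (-0.36, 95% interval -1.05 to 0.33, limma adjusted p = 0.524; -0.56 without Control replicate 1 and -0.22 without Control replicate 2). Rgs19 was at 148, 117 and 119 TPM in Control and 137, 123 and 110.45 TPM in LPS (-0.05, 95% interval -0.30 to 0.20, adjusted p = 0.826). Its direction was not settled, since the fold change was 0.06 without Control replicate 1 and 0.03 without LPS replicate 3.

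**Figure D2:**
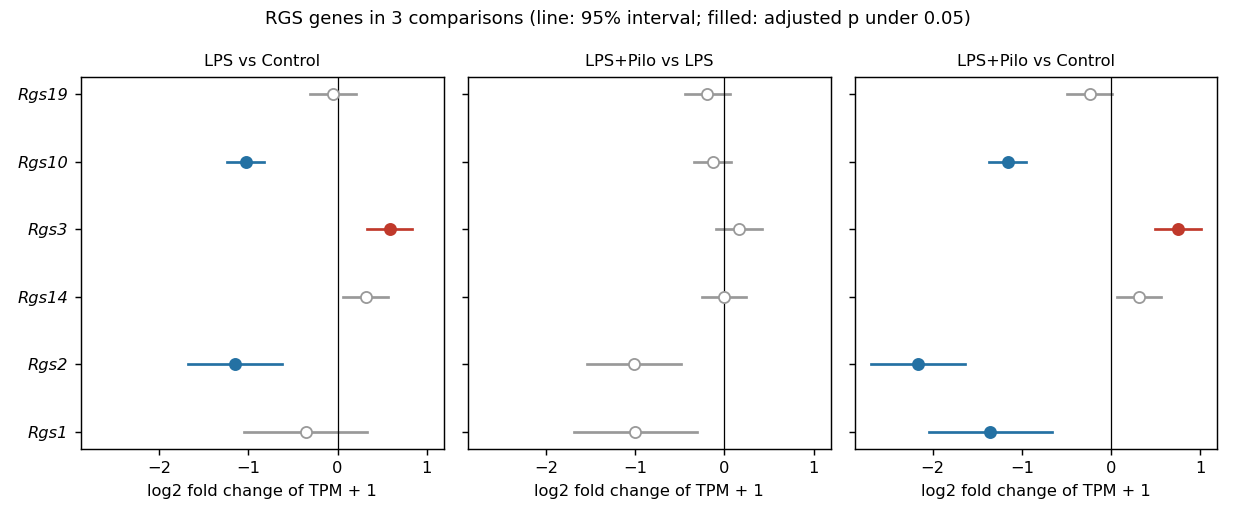
Difference in log2(TPM + 1) (horizontal axis) of 6 RGS genes in 3 comparisons; points are the limma estimates, lines their 95% intervals, and filled points passed an adjusted p of 0.05 (blue lower, red higher). With LPS Rgs10 and Rgs2 lay near -1 and Rgs3 at 0.58, and against LPS alone 0 of the 6 genes passed with Pilo.

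Start-site sequences are shown for the RGS genes called with LPS, Rgs10, Rgs2 and Rgs3. RefSeq promoter windows (build GRCm38.p6, matched by symbol) were found for 6 of the 9 genes, in 10 windows because Rgs3, Rgs12 and Rgs19 have several start sites. The 250 bases before the start are printed 5′ to 3′ on the gene's strand, with CpG dinucleotides in capitals: Rgs10 from chr7:128418173-128418422 (minus strand), Rgs2 from chr1:144004150-144004399 (minus strand), and Rgs3 from chr4:62559597-62559846 and chr4:62619422-62619671 (both plus strand).
Rgs10: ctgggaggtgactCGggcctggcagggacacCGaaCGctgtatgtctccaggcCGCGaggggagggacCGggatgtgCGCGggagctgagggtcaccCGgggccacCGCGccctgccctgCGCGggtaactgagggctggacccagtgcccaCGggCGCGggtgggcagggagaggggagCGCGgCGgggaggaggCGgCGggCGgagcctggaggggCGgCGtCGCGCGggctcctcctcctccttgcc
Rgs2: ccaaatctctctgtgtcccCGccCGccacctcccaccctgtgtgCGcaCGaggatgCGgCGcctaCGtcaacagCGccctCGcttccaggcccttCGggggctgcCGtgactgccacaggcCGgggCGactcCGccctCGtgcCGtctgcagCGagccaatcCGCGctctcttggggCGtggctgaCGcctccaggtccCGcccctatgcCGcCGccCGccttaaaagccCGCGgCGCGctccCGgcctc
Rgs3, first start: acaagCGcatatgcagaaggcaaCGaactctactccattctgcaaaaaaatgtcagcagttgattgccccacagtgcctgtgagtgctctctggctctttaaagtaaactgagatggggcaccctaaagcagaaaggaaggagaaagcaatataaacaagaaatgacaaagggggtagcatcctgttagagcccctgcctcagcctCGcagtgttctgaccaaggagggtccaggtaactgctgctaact
Rgs3, inner start: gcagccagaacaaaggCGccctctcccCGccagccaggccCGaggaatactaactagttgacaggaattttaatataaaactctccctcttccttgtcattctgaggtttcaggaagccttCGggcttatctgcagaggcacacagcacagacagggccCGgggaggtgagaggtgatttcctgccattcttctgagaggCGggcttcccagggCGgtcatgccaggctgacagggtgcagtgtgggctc

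The Rgs10 and Rgs2 windows are CpG-rich and the Rgs3 windows are not. Rgs10 has 27 CpGs and a GC content of 76.4%, and Rgs2 has 30 CpGs and 72.4%. The Rgs3 windows have 3 and 7 CpGs and GC contents of 48.4% and 56.8%, beside medians of 6 CpGs and 52.4% over all 32851 windows of the table. At least as many CpGs as in Rgs10 and Rgs2 were found in 8.56% and 5.94% of all windows. Rgs19, which did not pass, has windows with 4, 34 and 20 CpGs. Of the genes under the filter, Rgs12 has windows with 14 and 3 CpGs and Rgs16 has 17. Whether CpG content went with the direction of change was not tested. Gene-level TPM do not show which Rgs3 start was used. Windows of 300 bases (250 before and 50 after the start) were also searched on both strands for an NF-kB-like motif (found in 5.56% of all windows), the AP-1-like TGANTCA (7.81%) and the cAMP-response-element-like TGACGTCA (1.79%). The single match among the 10 RGS windows was TGACTCA at the inner start of Rgs12, from 22 to 16 bases before the start. Rgs1, Rgs14 and Rgs18 had no window and were not searched.

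The second comparison asked what Pilo added to LPS. Of the 6 RGS genes tested 0 passed in either direction, beside 5 of the 11260 genes tested (0.0444%; 0.00888% higher and 0.0355% lower). At an unadjusted p under 0.05, which 6.76% of all genes tested reached in limma, Rgs2 and Rgs1 were lower with Pilo. The median of the 6 was -0.16 beside -0.05 over all genes tested. This comparison shares its LPS libraries with the first.

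Rgs2 lay at 3.23, 5.64 and 7.82 TPM in LPS and at 2.44, 1.86 and 2.06 TPM in LPS+Pilo. The highest LPS+Pilo library was under the lowest LPS library. The mean differed by -61.9%, 2.12 ± 0.295 against 5.56 ± 2.30 TPM (SD, n = 3 per group), with a difference of -1.01 (95% interval -1.54 to -0.49; limma unadjusted p = 0.00174, adjusted p = 0.353, from 0.0860 to 1.00 over the alternatives). Rgs2 was thus lowest in LPS+Pilo and highest in Control, with all 3 groups apart in every library, an order shared by 153 of the genes tested (1.36%), while 0.808% had the reverse order. The fitted change was among the lowest, with 0.435% of genes below it.

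Rgs1 showed a difference of like size with more spread. Its LPS+Pilo libraries were at 6.89, 3.8 and 2.15 TPM, all below the LPS libraries at 9.15, 9.89 and 7.57 TPM. The mean differed by -51.7%, 4.28 ± 2.41 against 8.87 ± 1.19 TPM (SD, n = 3 per group), with a difference of -0.996 (95% interval -1.69 to -0.31; limma unadjusted p = 0.00955, adjusted p = 0.514, from 0.308 to 1.00 over the alternatives). LPS and LPS+Pilo libraries did not overlap for 12.2% of all genes tested, 5.58% with Pilo higher and 6.63% with Pilo lower. For the other members the LPS and LPS+Pilo libraries overlapped. Their differences were 0.17 for Rgs3 (95% interval -0.09 to 0.42), -0.13 for Rgs10 (-0.34 to 0.08), 0.00 for Rgs14 (-0.25 to 0.25) and -0.19 for Rgs19 (-0.45 to 0.06), with limma adjusted p from 0.811 to 0.999. The Rgs3 value was 0.07 without LPS+Pilo replicate 3, the Rgs19 value -0.11 without LPS replicate 1, and the Rgs10 value -0.08 with either other scaling. The Rgs14 value took either sign over the alternatives, from -0.07 to 0.07.

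**Figure D3:**
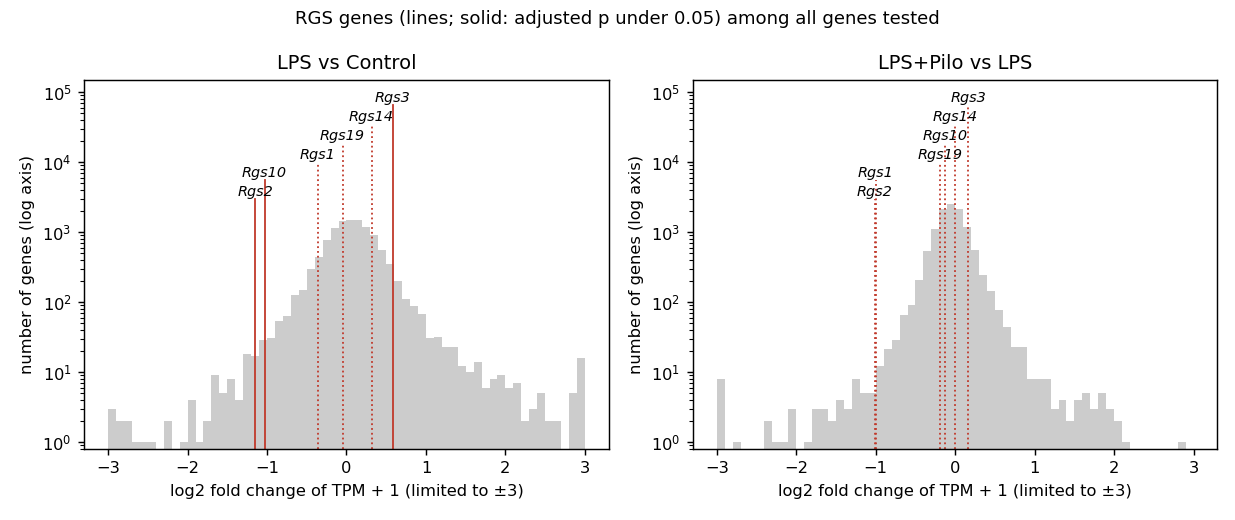
Number of genes (vertical log axis) by log2 fold change (horizontal axis, limited to 3 in each direction) for all 11260 genes tested, LPS against Control on the left and LPS+Pilo against LPS on the right; lines mark the 6 RGS genes, solid where the adjusted p was under 0.05. Rgs10 and Rgs2 sit in the lower tail on the left, and Rgs1 and Rgs2 in the lower tail on the right without passing.

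The third comparison set LPS+Pilo against Control, and its libraries are those of the other comparisons. Here 3 of the 6 RGS genes tested were lower and 1 was higher, beside 10.2% of all genes called (5.3% lower and 4.85% higher), with a median of -0.70 beside 0.02 over all genes tested. Rgs2 fell by 2.16 on the log2 scale (SE 0.24, limma adjusted p = 0.000442), from 12.9 to 2.12 TPM, and 0.151% of genes had a lower fold change. Rgs10 fell by 1.16 (SE 0.09, limma adjusted p = 5.98e-05), from 79.8 to 35.2 TPM, and Rgs3 rose by 0.75 (SE 0.11, limma adjusted p = 0.00327), from 14.04 to 24.4 TPM. Each of these 3 calls held in the 18 alternatives run.

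Rgs1 passed in this comparison and not in the other two, and its fold changes were not tested against each other. It fell by 1.36 (SE 0.31, limma adjusted p = 0.0221), from 11.8 ± 2.96 TPM in Control to 4.28 ± 2.41 TPM (SD, n = 3 per group). The lowest Control library, at 8.58 TPM, was above the highest LPS+Pilo library, at 6.89 TPM. Limma lost the call without Control replicate 2 (adjusted p = 0.0673), Control replicate 3 (0.0791), LPS+Pilo replicate 2 (0.0784) or LPS+Pilo replicate 3 (0.0629) and without the filter (0.0671). Its adjusted p in limma lay between 0.00755 and 0.0791 over the 18 alternatives. Rgs14, at 16.6, 14.8 and 18.3 TPM in LPS+Pilo, had the same mean in both treated groups (16.5 TPM) and did not pass against Control (0.31, 95% interval 0.06 to 0.56, limma adjusted p = 0.119). Rgs19, at 112, 105 and 106 TPM, lay below every Control library and did not pass either (-0.24, 95% interval -0.50 to 0.01, limma adjusted p = 0.230; -0.13 without Control replicate 1). LPS+Pilo and Control libraries did not overlap for 30.5% of all genes tested, 14.9% higher and 15.6% lower.

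Rgs12, Rgs16 and Rgs18 were under the filter and were not tested. Rgs12, whose product is a large multidomain scaffold, ranged from 0.06 to 0.23 TPM (Control), from 0.07 to 0.40 TPM (LPS) and from 0.16 to 1.08 TPM (LPS+Pilo), with overlapping groups. Its highest value was in LPS+Pilo replicate 1 (1.08 TPM), and the others in that group were 0.29 and 0.16 TPM. Rgs16, an inducible regulator of Gi and Gq, was listed at 0 in all 9 libraries. Rgs18, known from platelets and their precursors, had 0.02 TPM in LPS replicate 3 and 0 in the other 8 libraries.

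The 9 genes lie on 6 chromosomes, and 4 of them on chromosome 1. In the RefSeq order of GRCm38.p6, Rgs2, Rgs13, Rgs1, Rgs21 and Rgs18 are consecutive protein-coding genes on chromosome 1, and Rgs16 is next to Rgs8 on the same chromosome. Within that run of neighbours Rgs2 and Rgs1 were expressed, whereas Rgs13 stayed at or below 0.07 TPM, Rgs21 at 0 and Rgs18 at or below 0.02 TPM. The expressed neighbours had Control levels that overlapped, 12.6 to 13.4 TPM for Rgs2 and 8.58 to 14.4 TPM for Rgs1. Of 13 further RGS genes, 12 were under the filter with no value above 0.55 TPM. The exception, Rgs11, ranged from 0.81 to 2.07 TPM over the 9 libraries and did not pass with LPS (-0.36, limma adjusted p = 0.360), with Pilo added to LPS (0.29, 0.852) or in LPS+Pilo against Control (-0.07, 0.888).

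The summed level of the 9 genes was highest in Control and lowest in LPS+Pilo. Control libraries held 282, 251 and 248 TPM, LPS libraries 225, 215 and 204 TPM, and LPS+Pilo libraries 199.9, 180.7 and 191 TPM. The groups did not overlap. Between Control and LPS the mean sum differed by -45.3 TPM, and Rgs10 alone by -41.2 TPM. Between LPS and LPS+Pilo the mean sum differed by a further -24.2 TPM, of which Rgs19 made up the most (-15.9 TPM) although it did not pass.

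The mix of RGS transcripts differed between untreated and treated cells, which is given without a test. Rgs19 made up 49.2% ± 3.03 of the summed level in Control cells, 57.4% ± 3.42 with LPS and 56.5% ± 1.41 with LPS and Pilo (SD, n = 3 each). Rgs10 made up 30.7% ± 0.449, 18.0% ± 2.16 and 18.4% ± 0.214. In the same order Rgs3 had 5.42% ± 0.582, 10.03% ± 0.508 and 12.8% ± 1.51, and Rgs2 had 4.999% ± 0.468, 2.63% ± 1.20 and 1.11% ± 0.0995. The Gq-preferring Rgs2 was thus slightly under Rgs3 in each Control library and further under it in every treated library.

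**Figure D4:**
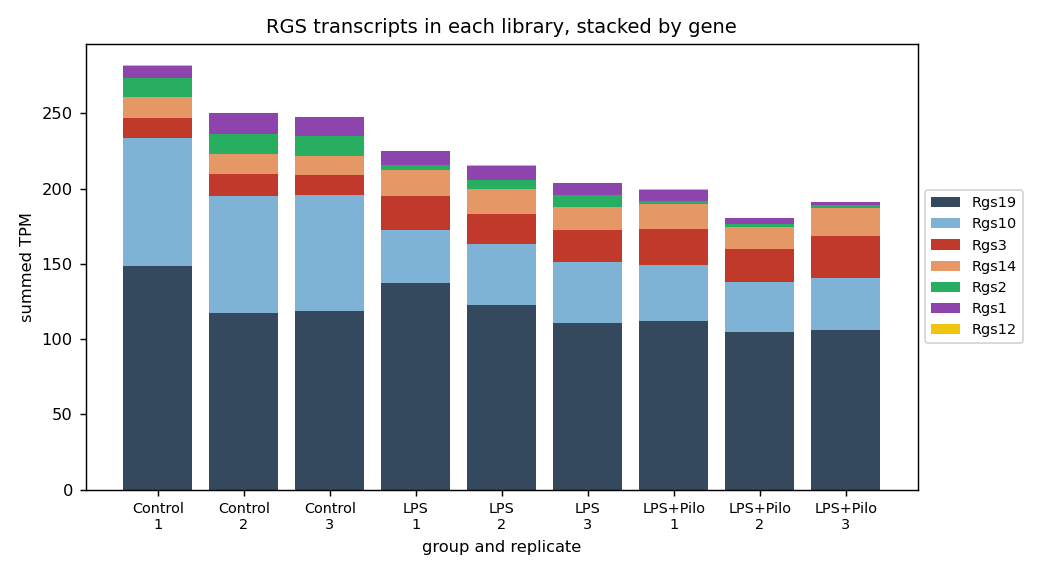
Summed TPM of the RGS genes (vertical axis, from 0) in each of the 9 libraries, stacked by gene; Rgs16 and Rgs18 were at or near 0 and are not drawn. The light blue Rgs10 segment is about 77 to 85 TPM in Control and 33 to 41 TPM in the treated libraries, and Rgs19 is the largest segment throughout.

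Other genes of G protein signalling were taken from 7 further lists, read by counts. Over all genes tested, 7.76% were called with LPS (4.12% higher and 3.64% lower), and the lists are small, with 4 to 14 genes tested. Among 7 receptor kinase and arrestin genes 5 were tested, and with LPS 2 were higher, 1 lower and 2 did not pass. Arrb1, which encodes beta-arrestin, fell by 0.83 (limma adjusted p = 0.0107), from 23.3 ± 3.74 to 12.7 ± 2.30 TPM (SD, n = 3 per group), and passed in all alternatives. Its relative Arrb2 rose by 0.41, from 225 to 299 TPM (limma adjusted p = 0.0319). Grk5, a receptor kinase gene, rose by 0.71, from 9.34 to 16.1 TPM (limma adjusted p = 0.0387). Each of these rises was lost in 9 of 18 alternatives. Leaving out a library ended the Arrb2 call for Control replicates 2 and 3 (0.110 and 0.0631), LPS replicates 1 and 2 (0.1004 and 0.0691) and LPS+Pilo replicate 1 (0.0515). It ended the Grk5 call for Control replicates 2 and 3 (0.116 and 0.114), LPS replicates 1 and 3 (0.123 and 0.0771) and LPS+Pilo replicate 2 (0.0669). The list's median was 0.06, beside 0.07 over all genes tested.

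The alpha subunits, on which RGS proteins act, had 8 tested of 13, with 0 higher, 2 lower and 6 not passing with LPS, beside 3.64% lower over all genes tested (median -0.17 beside 0.07). Gnai2, the main Gi alpha gene here, was at 353, 324 and 336 TPM in Control and 260.1, 239 and 231 TPM in LPS, and fell by 0.47 (limma adjusted p = 0.00708), a call kept in all alternatives. Gna11, of the Gq family, fell by 0.60, from 13.2 to 8.39 TPM (limma adjusted p = 0.0236). Its call was lost in 5 of 18 alternatives. These left out Control replicate 2 or 3 (0.0796 and 0.110) or LPS replicate 1 or 2 (0.0660 and 0.0938), or fitted only Control and LPS (0.0622). Gnaq, the other widely expressed Gq alpha gene, was low and variable, at 2.76 to 7.75 TPM over the 9 libraries, and did not pass (0.10, limma adjusted p = 0.883). Its direction was not settled, since the fold change turned negative in 5 of 18 alternatives and ranged from -0.10 to 0.44 (0.44 without Control replicate 1 and 0.43 without LPS replicate 3, and negative without Control replicate 2 or 3 or LPS replicate 1 or 2).

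Of 16 beta and gamma subunit genes 10 were tested, with 1 higher, 1 lower and 8 not passing with LPS, beside 7.76% called over all genes tested (median 0.08 beside 0.07). Gng2 rose by 0.46, from 54.8 to 75.7 TPM (limma adjusted p = 0.0124; 0.0664 without Control replicate 3 and 0.0873 with median-of-ratios scaling). Gnb5, the beta subunit that pairs with another subclass of RGS proteins, fell by 0.64, from 9.19 to 5.55 TPM (limma adjusted p = 0.0306). That call was lost in 9 of 18 alternatives, among them the fits that left out any Control library (0.0647, 0.0638 and 0.0867 for replicates 1 to 3), any LPS library (0.0573, 0.113 and 0.0516) or LPS+Pilo replicate 3 (0.0589). Gngt2, a gamma subunit gene, passed in LPS+Pilo against Control, falling by 0.53 from 48.1 to 33.1 TPM (limma adjusted p = 0.0324), and lost the call in 8 of 18 alternatives: when Control replicate 2 or 3 was left out (0.0680 and 0.128), when any LPS+Pilo library was (0.0619, 0.0634 and 0.119), without the filter (0.0643), with median-of-ratios scaling (0.0632) and with the replicate block (0.0516).

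With LPS 0 genes passed among the 7 tested of 9 RGS-homology scaffold and exchange factor genes (median -0.11), the 6 tested of 7 other regulators of alpha subunits (0.00) and the 4 tested of 13 adenylyl cyclase and phospholipase C beta genes (-0.17). The receptor list was the longest: 14 of 30 were tested, with 4 higher, 5 lower and 5 not passing, beside 4.12% higher and 3.64% lower over all genes tested (median -0.09 beside 0.07). The 4 receptors named had the largest fold changes in any comparison, and other receptors passed with LPS as well. Gpr84, a receptor gene for medium-chain fatty acids, rose by 1.20, from 26.6 to 62.4 TPM (limma adjusted p = 0.000336). The CXCL12 receptor gene Cxcr4 fell by 1.91, from 7.38 to 1.22 TPM (limma adjusted p = 0.000348). The oxysterol receptor gene Gpr183 fell by 1.74, from 11.97 to 2.88 TPM (limma adjusted p = 0.000165), and the sphingosine phosphate receptor gene S1pr1 by 1.03, from 2.61 to 0.770 TPM (limma adjusted p = 0.00773; log2 fold change -1.46 in LPS+Pilo against Control, adjusted p = 0.000937). These receptors signal at least in part through Gi, and their 4 calls held in each alternative in which the gene was tested. S1pr1 reached 1 TPM only in the Control libraries (2.26 to 3.23 TPM), with 0.27 to 0.97 TPM in the treated ones. It was tested against Control in only 14 alternatives. Leaving out any Control library, or requiring 1 TPM in all 9 libraries, removed it from the test. Those fits could not show whether its call would be lost.

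All 5 muscarinic receptor genes were under the filter: Chrm4 ranged from 0.08 to 0.36 TPM, and Chrm1, Chrm2 and Chrm5 were listed at 0. Chrm3, the M3 receptor gene, was at 0.01 TPM in LPS replicate 2, 0.02 TPM in LPS+Pilo replicate 1 and 0 in the other 7 libraries. With Pilo added to LPS 0 genes passed on each of the 8 lists that include the 13 further RGS genes. Only 0.0444% of all genes tested passed there, so a count of 0 does not set these lists apart. The 14 receptors tested had a median of -0.32, beside -0.05 over all genes tested. LPS+Pilo libraries lay below LPS libraries without overlap for Cx3cr1, Gpr183, Gpr84, C3ar1, S1pr1, Hcar2, P2ry6 and S1pr2, and above them for Cxcr4. The other receptors tested overlapped, and 12.2% of all genes tested had no overlap. Against Control, 4.85% of all genes tested were higher and 5.3% lower in LPS+Pilo. Beside this were 1 higher and 1 lower of 5 receptor kinase and arrestin genes tested, 0 higher and 2 lower of 8 alpha subunits, 1 higher and 2 lower of 10 beta and gamma subunits, and 5 higher and 6 lower of 14 receptors.

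**Figure D5:**
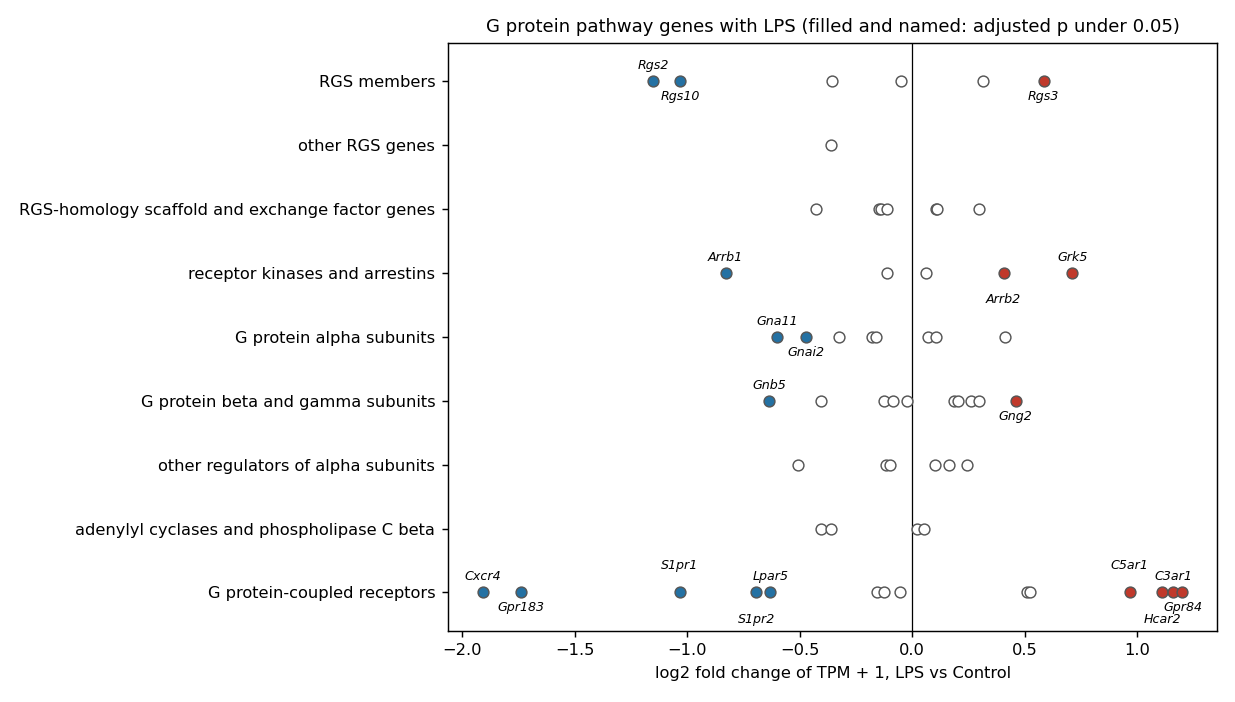
Log2 fold change with LPS against Control (horizontal axis) of each tested gene on the RGS list and 8 other G protein lists (rows); filled, named points passed an adjusted p of 0.05 (blue lower, red higher), open points did not. The receptor list spread most, from -1.91 for Cxcr4 to 1.20 for Gpr84, and 4 lists had no call.

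Genes with patterns most like those of the called RGS genes were found by the root mean square difference between log2(TPM + 1) values standardised over the 9 libraries, among 7181 genes with a symbol other than a Gm or Rik placeholder and a mean of at least 5 TPM. For Rgs10 the nearest included Camk1 (difference 0.148 SD units; group means of 267, 115 and 109.9 TPM, Control first) and Rab3il1 (0.155), and the median gene differed by 1.36. For Rgs2 they were Trappc1 (0.221; 114, 93.9 and 79.5 TPM), Hspb7 (0.225; 203, 85.4 and 47.0 TPM) and Ly86 (0.238). Trappc1 and Ly86 did not pass with LPS (limma adjusted p = 0.0766 and 0.0627). For Rgs3 the nearest were Soat2 (0.197), Ap5s1 (0.213) and Vasp (0.225; 88.0, 145 and 161 TPM). The nearest to Rgs1 were farther off, the ribosomal protein gene Rpl21 (0.335), the translation factor gene Eef1b2 (0.378) and Commd1 (0.379). Rpl21 and Eef1b2 passed in no comparison. Standardised values leave out the size of a change, so a near pattern can belong to a small change. Each list of neighbours describes these 9 libraries only, which share a table and its scaling.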

How the data were processed

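The authors deposited 1 table of TPM for 55906 entries, with 1 column per library and values to 2 decimals. Of these entries 492 are assembled transcripts with MSTRG names and no Ensembl identifier. Build GRCm39 and the tools STAR 2.7.1a, DESeq2 1.24.0 and fastp 0.19.5 are named, per the submitters' processing notes. For the TPM program, its annotation and its strand setting the entry is: not given in the sources used here. TPM hold no counts, so depth and counting error are unknown. Per the labels' protocols, total RNA was taken with TRIzol and libraries were made with a TruSeq kit.

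Symbols were matched by Ensembl identifier to GENCODE M21 (52081 genes). In that annotation Rgs1, Rgs2, Rgs14, Rgs18 and Rgs19 overlap no other gene, and genes that overlap the other 4 members reached at most 0.25 TPM. The 11260 genes that reached 1 TPM in 3 or more libraries were fitted as log2(TPM + 1) in limma 3.58.1 (R 4.3.3) over all 9 libraries, with 1 mean per group, a variance trend and 6 residual degrees of freedom; tests were two-sided and Benjamini-Hochberg adjusted over all genes. The fit was tested on simulated data. Standardised values and figures were made in Python 3.11.15.

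The members and lists were chosen with earlier results of these data known. All 9 members were named, as were up to 4 called genes per other list (largest absolute fold change in any comparison), the 3 nearest patterns of the 4 called members (1 of which is not reported here), Tnf, Chrm3 and Gnaq; the neighbours of Rgs genes on chromosome 1, Rgs11 and marker genes were named after their values were seen. CpG counts were also chosen after the data were seen.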

Additional observations from a re-analysis of the deposited data

How the results depend on the processing

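Each RGS result was recomputed with 2 other pseudocounts (0.1 and 0.5), without the filter, with 1 TPM required in all 9 libraries, with quantile or median-of-ratios scaling, with a replicate block, without the variance trend, with only the 2 groups compared, and without each library in turn, 18 alternatives in all. No called RGS gene changed direction. With LPS the number of RGS genes called lower moved from 2 to 1 without the filter and with only the 2 groups compared, and ran from 1 to 2 over the fits that each left out a library, while the number called higher ran from 0 to 1; the genes concerned were Rgs2 and Rgs3, and the cause was not tested. For LPS+Pilo against LPS both counts stayed at 0, and for LPS+Pilo against Control 1 gene was called higher throughout and 2 to 3 lower. Over all genes, 874 calls with LPS became 1516 with quantile scaling, 483 with only the 2 groups compared and 414 to 1020 without a library (552 without Control replicate 2, 414 without Control replicate 3, 507 without LPS replicate 1, 466 without LPS replicate 2). The 1143 calls of LPS+Pilo against Control became 1726 with quantile scaling and 642 to 1286 without a library (642 without Control replicate 3, and 735, 663 and 692 without LPS+Pilo replicates 1, 2 and 3), and the 5 calls of LPS+Pilo against LPS ran from 0 to 6. Libraries with the same replicate number did not deviate together (correlations of -0.225 to 0.165 over 9 pairs), so the number was not taken as pairing; with the replicate block the RGS counts were again 1 higher and 2 lower with LPS, 0 with Pilo added and 1 higher and 3 lower in LPS+Pilo against Control, and 808, 1 and 1064 genes were called. Unknown depth leaves the precision of Rgs12 and other genes near 0 unknown.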

Other observations

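Ratios of RGS genes within a library do not change when the whole library is multiplied by a single factor, but quantile normalization can change them. These ratios were chosen after the values above were seen, so they are given with no test. The ratio of Rgs19 to Rgs10 TPM was 1.74, 1.52 and 1.55 in Control, 3.89, 3.08 and 2.73 in LPS and 3.002, 3.16 and 3.04 in LPS+Pilo. The treated groups overlapped each other and not Control. The ratio of Rgs3 to Rgs2 TPM was 1.07, 1.11 and 1.07 in Control, 7.003, 3.63 and 2.75 in LPS and 9.70, 11.7 and 13.5 in LPS+Pilo, with all 3 groups apart. The ratio of Rgs2 to Rgs1 TPM, the expressed pair of the chromosome 1 run, ranged from 0.931 to 1.47 in Control, from 0.353 to 1.03 in LPS and from 0.354 to 0.958 in LPS+Pilo. The treated groups overlapped each other in this ratio, and the highest LPS and LPS+Pilo values lay within the Control range.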
